A study of Rattus norvegicus with 13 samples.

Results

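Heat shock proteins and chaperones were examined as a set of 10 genes, chosen by name among the 28357 genes of the day 3 files, in peripheral cornea and limboscleral tissue of rats with limbal stem cell deficiency and corneal neovascularization. The tissue came from male wild-type Lewis rats aged 2 months. Spironolactone animals received 25 mg/kg/day, and vehicle animals received 90% olive oil with 10% DMSO. The spironolactone day 3 group (n = 3 libraries) was set against the vehicle day 3 group (n = 3). The question was whether stress-inducible chaperone transcripts behave differently from constitutive and mitochondrial ones under spironolactone, a mineralocorticoid receptor antagonist. The limbal deficiency was common to both groups. The labels do not say that each library came from its own animal, and the p-values below rest on a spread among libraries that may be technical. The 7 libraries of day 7 were not used here, because their gene IDs are paired with names by no source used here.

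Molecular chaperones bind unfolded or newly made proteins, keep them from clumping and help them fold. When proteins unfold, for example on heat, oxidation or wounding, the transcription factor HSF1 binds heat shock elements and raises the inducible chaperones, while constitutive relatives run the same cycle in unstressed cells. The endoplasmic reticulum has its own chaperones under the unfolded protein response, and mitochondria fold imported proteins in the HSP60 and HSP10 chamber. Steroid receptors, among them the mineralocorticoid receptor that spironolactone antagonizes, are held ready for hormone by HSP70 and HSP90 complexes.

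By these roles the members fell into 4 classes. Inducible members were Hspa1b (inducible HSP70), Hspb1 (the small heat shock protein HSP27 in human), Dnajb1 (the J-domain partner that feeds clients to HSP70), Hsph1 (HSP110, a nucleotide exchange factor of HSP70) and Hsp90aa1 (inducible HSP90 alpha). Constitutive members were Hspa8 (HSC70) and Hsp90ab1 (HSP90 beta). Mitochondrial members were Hspd1 (HSP60) and its lid Hspe1 (HSP10), and Hspa5 (BiP) was the member of the endoplasmic reticulum.

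RefSeq promoter windows of 300 bases, from 250 bases before to 50 bases after the start site on the GRCr8 assembly, were at hand for 8 of the 10 members, all but Hspa1b and Hsp90aa1. They were searched on both strands for the 2-unit heat shock forms GAANNTTC and TTCNNGAA, in which N is any base. They were also searched for the 3-unit heat shock element, which is GAANNTTC followed after 2 bases by GAA, or TTCNNGAA followed after 2 bases by TTC, and so contains the shorter forms. The endoplasmic reticulum stress element was searched as CCAAT and CCACG separated by 9 bases. Windows are shown for 4 members that differ in class or in their measured values: an inducible gene with higher values (Dnajb1), an inducible gene with lower values (Hsph1), the mitochondrial gene Hspe1, whose window overlaps that of Hspd1, and Hspa5. Capitals mark the heat shock matches, or in Hspa5 the endoplasmic reticulum stress element.
Dnajb1 (GRCr8 chr19:41431092-41431391, minus strand): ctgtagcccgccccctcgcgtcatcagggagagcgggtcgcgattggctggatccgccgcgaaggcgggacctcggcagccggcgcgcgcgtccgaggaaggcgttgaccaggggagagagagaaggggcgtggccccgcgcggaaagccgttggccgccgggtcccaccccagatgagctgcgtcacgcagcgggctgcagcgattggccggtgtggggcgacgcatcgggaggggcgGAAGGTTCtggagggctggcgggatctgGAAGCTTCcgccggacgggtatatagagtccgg
Hsph1 (GRCr8 chr12:10427118-10427417, plus strand): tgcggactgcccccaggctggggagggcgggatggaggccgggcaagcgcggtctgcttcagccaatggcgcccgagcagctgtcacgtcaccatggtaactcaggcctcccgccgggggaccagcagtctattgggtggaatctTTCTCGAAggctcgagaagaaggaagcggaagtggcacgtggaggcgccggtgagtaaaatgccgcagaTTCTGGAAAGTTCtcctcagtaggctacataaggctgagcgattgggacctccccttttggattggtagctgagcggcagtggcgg
Hspe1 (GRCr8 chr9:64084077-64084376, plus strand): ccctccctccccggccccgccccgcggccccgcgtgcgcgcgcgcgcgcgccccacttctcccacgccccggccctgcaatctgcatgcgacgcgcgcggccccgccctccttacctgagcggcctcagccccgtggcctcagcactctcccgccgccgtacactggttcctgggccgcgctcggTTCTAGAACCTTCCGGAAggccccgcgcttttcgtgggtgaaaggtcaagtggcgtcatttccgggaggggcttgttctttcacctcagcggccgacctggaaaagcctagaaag
Hspa5 (GRCr8 chr3:38452766-38453065, plus strand): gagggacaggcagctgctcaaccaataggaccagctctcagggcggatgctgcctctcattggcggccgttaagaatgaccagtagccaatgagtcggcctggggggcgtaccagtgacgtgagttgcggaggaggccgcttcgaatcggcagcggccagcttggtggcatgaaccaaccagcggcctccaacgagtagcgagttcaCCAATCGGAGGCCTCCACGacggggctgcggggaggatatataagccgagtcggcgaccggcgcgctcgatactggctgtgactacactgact

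The 3-unit element was found in 4 of the 8 windows, those of Hsph1, Hspa8, Hspd1 and Hspe1, against 0.798% of 33469 windows of the same length. A 2-unit form was found in 6 of the 8, against 15.9%, and in Dnajb1 and Hspb1 only this shorter form matched. Only exact matches were counted, so the search does not show that these windows lack a 3-unit element with a changed base. Hspd1 and Hspe1 lie head to head with start sites 290 bases apart, and their windows shared 211 bases on opposite strands, so the capitals in Hspe1 are the same bases that matched in Hspd1. The Hspa5 window held the endoplasmic reticulum stress element, which occurred in 0.0657% of windows, and no heat shock match. A match describes the letters of a window and says nothing of binding.

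Hsp90aa1 was listed at 0 in all 6 libraries, at both estimated counts and TPM, although it is a gene of nearly every cell. No fold change is given for it, and its ratio to Hsp90ab1 could not be formed. Hspa1a, the near-identical neighbour of Hspa1b, was also listed at 0 throughout, so how reads of the pair were assigned is uncertain and the Hspa1b values may hold reads of both. Hspa8 has processed copies in rodent genomes, and 1 row named for such a copy (Hsc70-ps2) held 166 to 229 estimated counts in the spironolactone libraries and 186 to 259 in the vehicle libraries.

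The other 9 members passed the filter on low counts. On the TPM scale, which divides by transcript length and library size, Hsp90ab1 stood highest at a mean of 1552 TPM over the 6 libraries, followed by Hspa8 at 889, Hspe1 at 583, Hspa5 at 474, Hspd1 at 271, Hspb1 at 219.9, Dnajb1 at 92.2, Hsph1 at 56.3 and Hspa1b at 32.4 TPM. Neighbours in this order did not overlap in range, apart from Hspe1 with Hspa5 and Hspd1 with Hspb1. Constitutive genes thus headed the order and inducible ones closed it. Hspe1 is so short that its effective length was 87.7 to 96.2 bases, which makes its TPM depend heavily on that length. The 9 members together took 0.394% to 0.4497% of all TPM in spironolactone libraries and 0.409% to 0.425% in vehicle libraries.

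**Figure D1:**
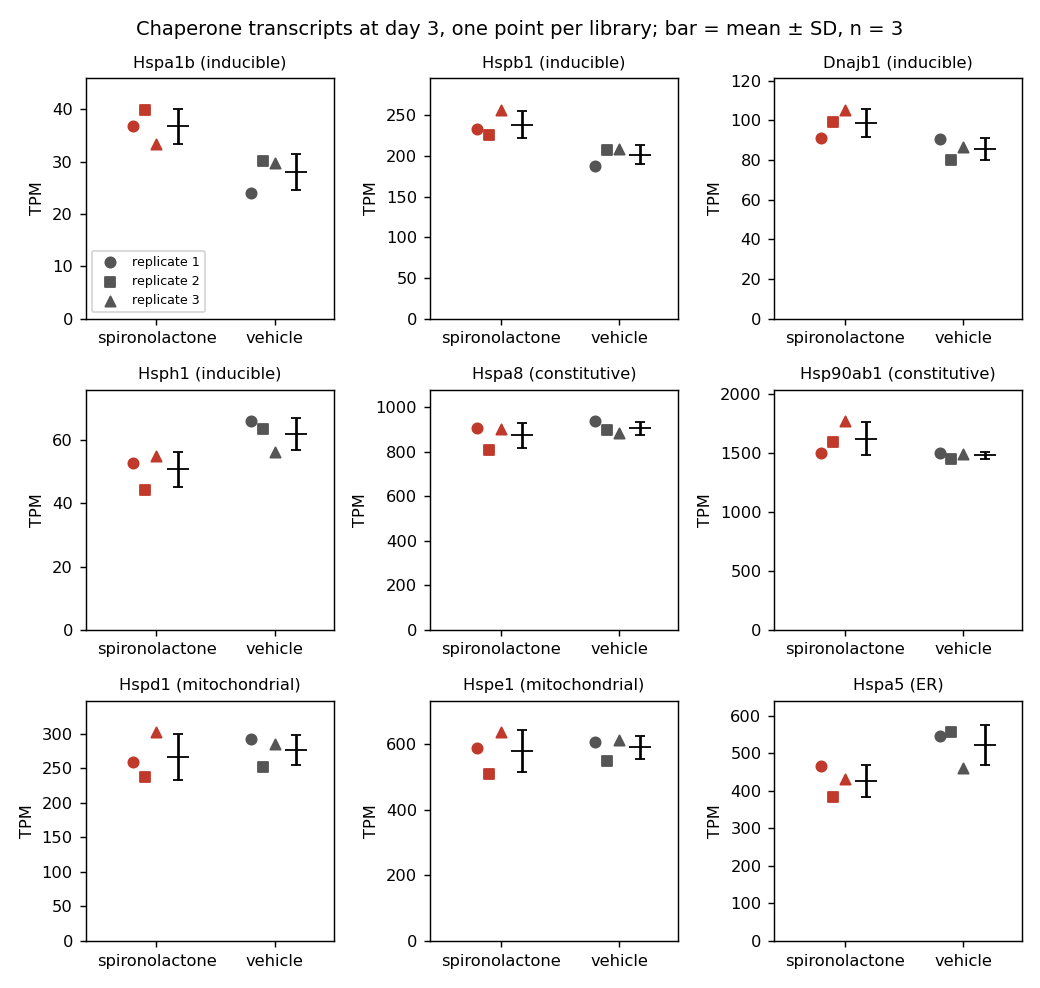
TPM (vertical axes from 0) of the 9 measured chaperone genes in each day 3 library, spironolactone left and vehicle right, with marker shapes for replicates and bars for the mean ± SD of 3 libraries. Hspa1b runs from 33.4 to 39.9 TPM with spironolactone and from 24.1 to 30.1 TPM with vehicle, while Hspd1 and Hspe1 overlap.

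The 3 inducible genes, Hspa1b, Hspb1 and Dnajb1, had higher values with spironolactone in every library than in any vehicle library, by 1.37-fold, 1.24-fold and 1.2-fold in the fit. Among all genes tested, 16% lay apart in that direction and 32% in either. None of them passed an adjusted p of 0.05 in edgeR's quasi-likelihood test, where 0 of 14762 genes (0%) did in either direction and 3332 genes (22.6%) had an unadjusted p under 0.05. The fourth measured inducible gene, Hsph1, went the other way at 0.854-fold. Values within a gene are given below as TMM-scaled CPM (counts over the scaled library size).

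Hspa1b had 57.6, 61.6 and 52.5 CPM in the spironolactone libraries, against 35.8, 44.9 and 45.1 CPM in the vehicle libraries. The groups did not overlap, and the lowest value was that of vehicle replicate 1. Its log2 fold change was 0.45 (SE 0.11, 95% interval 0.20 to 0.70), with an adjusted p of 0.0839 in edgeR.

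Hspb1 had 112, 107 and 125 CPM with spironolactone, against 85.2, 94.9 and 97.4 CPM with vehicle. Again every spironolactone library lay above every vehicle library. The log2 fold change was 0.31 (SE 0.079, 95% interval 0.12 to 0.49), with an adjusted p of 0.0939 in edgeR.

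Dnajb1 had 126, 135 and 146 CPM with spironolactone, against 119, 105 and 116 CPM with vehicle. The groups did not overlap, but spironolactone replicate 1 and vehicle replicate 1 lay close together. The log2 fold change was 0.26 (SE 0.075, 95% interval 0.086 to 0.44), with an adjusted p of 0.112 in edgeR.

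Hsph1 had 118, 98.2 and 124 CPM with spironolactone, against 141, 136 and 122 CPM with vehicle. Spironolactone replicate 3 lay above vehicle replicate 3, so the groups overlapped on this scale, while as TPM they did not (44.4 to 55.0 TPM with spironolactone and 56.2 to 66.1 TPM with vehicle). The log2 fold change was -0.23 (SE 0.099, 95% interval -0.46 to 0.0066), with an adjusted p of 0.229 in edgeR.

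DESeq2, run as an alternative on the same counts, called the 3 higher inducible genes, at adjusted p of 0.00717 for Hspa1b, 0.0221 for Hspb1 and 0.0381 for Dnajb1. It called 6.12% of the 13898 genes to which it gave an adjusted p as higher with spironolactone and 3.55% as lower, or 9.67% in either direction. Limma-voom called none of the 9 members and none of 14762 genes, with 3451 genes at an unadjusted p under 0.05. In edgeR 3 members were at an unadjusted p under 0.05 among the inducible class, all higher, and 1 (Hsp90ab1) among the constitutive class, against 12.2% of all genes higher at that level and 10.4% lower.

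Of the constitutive genes, Hsp90ab1 had 2281, 2400.0 and 2724 CPM with spironolactone, against 2174, 2108 and 2205 CPM with vehicle. The groups did not overlap as CPM, but as TPM spironolactone replicate 1 (1498 TPM) lay just below vehicle replicate 1 (1499.7 TPM). The log2 fold change was 0.19 (SE 0.077, 95% interval 0.0076 to 0.37), with an adjusted p of 0.208 in edgeR.

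Hspa8, the constitutive HSP70, had 1096, 963 and 1097 CPM with spironolactone, against 1074, 1032 and 1033 CPM with vehicle. The vehicle libraries lay inside the spironolactone range. The log2 fold change was 0.0083 with a 95% interval of -0.15 to 0.17 (adjusted p of 0.953 in edgeR), and differences within that interval are not excluded.

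The mitochondrial pair overlapped between groups for both genes. Hspd1 had 364, 329.7 and 428 CPM with spironolactone, against 390.2, 338 and 388 CPM with vehicle (log2 fold change 0.0071, 95% interval -0.25 to 0.26, adjusted p of 0.976 in edgeR). Hspe1 had 37.2, 31.5 and 42.1 CPM with spironolactone, against 34.7, 32.4 and 38.4 CPM with vehicle (log2 fold change 0.068, 95% interval -0.21 to 0.35, adjusted p of 0.751 in edgeR). In both genes spironolactone replicate 3 was the highest library and spironolactone replicate 2 the lowest. The log2 fold changes of Hspa8, Hspd1 and Hspe1 changed sign on the TPM scale, to -0.0537, -0.0570 and -0.0338 at a pseudocount of 1.

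Hspa5, which encodes the chaperone that gates the unfolded protein response, had 764, 618 and 708 CPM with spironolactone, against 849, 868 and 729 CPM with vehicle. Spironolactone replicate 1 lay above vehicle replicate 3, so the groups overlapped. The log2 fold change was -0.23 (SE 0.10, 95% interval -0.46 to 0.011), with an adjusted p of 0.236 in edgeR.

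**Figure D2:**
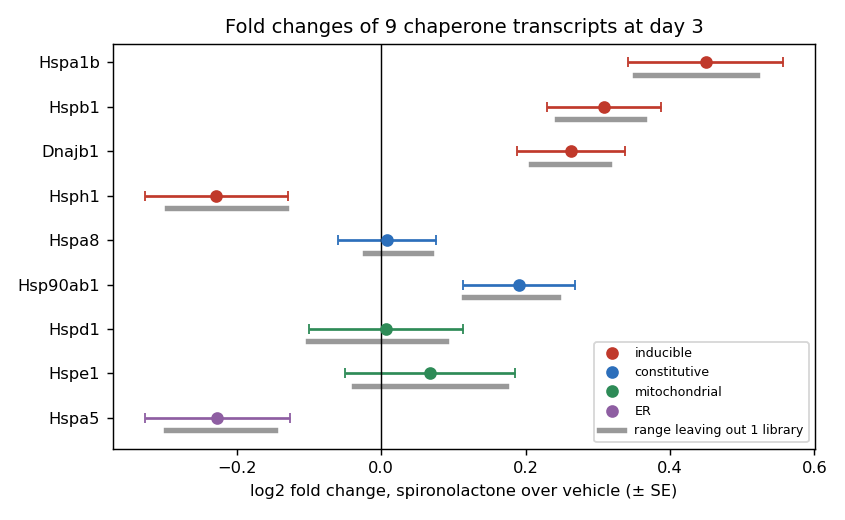
Log2 fold changes of spironolactone over vehicle (horizontal axis, points with ± SE) for the 9 measured genes, coloured by class, with a grey bar for the range when each library was left out. Hspa1b, Hspb1, Dnajb1 and Hsp90ab1 lie above 0 and Hsph1 and Hspa5 below it in every such fit, while the bars of Hspa8, Hspd1 and Hspe1 cross 0.

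Set by class, the median log2 fold change was 0.29 over the 4 measured inducible members, 0.10 over the 2 constitutive, 0.038 over the 2 mitochondrial and -0.23 for Hspa5, beside -0.0073 over all genes tested. Groups did not overlap as CPM in 4 of the 9 members, all higher with spironolactone: Hspa1b, Hspb1, Dnajb1 and Hsp90ab1. Among all genes the share without overlap was 16% higher and 16.1% lower. The inducible class was split by Hsph1, whose log2 fold change was closer to that of Hspa5 than to those of the other inducible genes.

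Per library, the mean of the 4 inducible members, each centred on its own mean over the 6 libraries, was 0.09, 0.05 and 0.16 on the log2 scale with spironolactone, against -0.14, -0.08 and -0.07 with vehicle. These did not overlap. The 4 constitutive and mitochondrial members gave 0.018, -0.11 and 0.19 with spironolactone, against -0.0065, -0.11 and 0.019 with vehicle, which did overlap. The inducible mean minus that of the constitutive and mitochondrial members was 0.068, 0.16 and -0.025 with spironolactone, against -0.14, 0.029 and -0.091 with vehicle, and spironolactone replicate 3 lay below vehicle replicate 2. These are descriptions of chosen genes and carry no test.

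**Figure D3:**
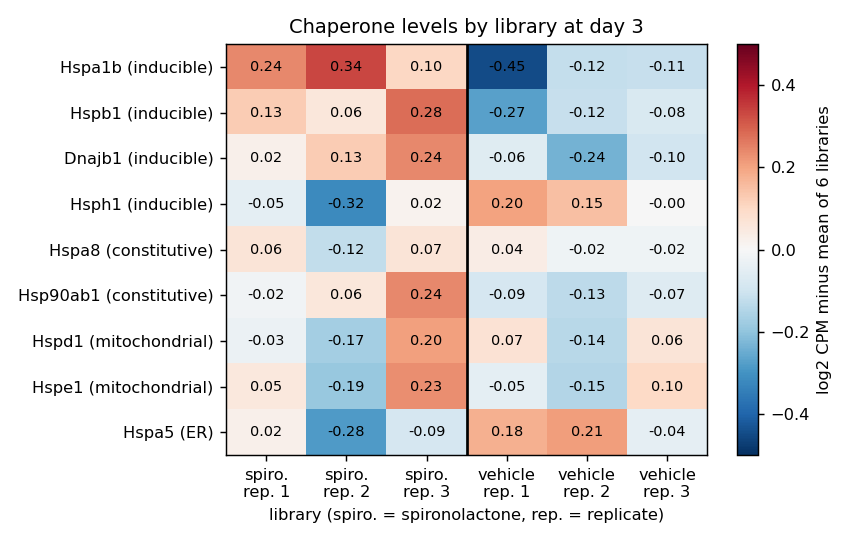
Log2 CPM of each measured member (rows) in each day 3 library (columns, spironolactone left), minus the gene's mean over the 6 libraries, as a colour and a number. The rows of Hspa1b, Hspb1 and Dnajb1 are above 0 in the 3 spironolactone libraries and below 0 in the 3 vehicle libraries, and spironolactone replicate 3 holds the highest value of 6 of the 9 members.

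Within a library, Hspa1b stood at 4.06, 4.94 and 3.7 TPM per 100 TPM of its constitutive relative Hspa8 with spironolactone, against 2.57, 3.36 and 3.37 with vehicle. The log2 ratio was higher by 0.45 with spironolactone (-4.57 ± 0.21 against -5.02 ± 0.23 with vehicle, SD, n = 3 each), and a two-sided exact permutation test over the libraries gave p = 0.1, the smallest that 3 against 3 allows, or 0.2 adjusted over the 2 ratios formed. The Hspd1 to Hspe1 ratio, of partner genes that lie head to head, was 0.441, 0.466 and 0.476 with spironolactone, against 0.482, 0.459 and 0.464 with vehicle (exact permutation test, p = 0.7, adjusted 0.7). This ratio spread by an SD of 0.056 on the log2 scale with spironolactone and 0.038 with vehicle.

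Spironolactone replicate 3 carried the highest level of 6 members and spironolactone replicate 2 the lowest of 5. Spironolactone replicate 3 also stood apart in tissue content: its 5 retina markers summed to 184.5 TPM, against 2625 and 3389 TPM in the other spironolactone libraries and 4109 to 4602 TPM in the vehicle libraries. Lens markers summed to 845 TPM in vehicle replicate 3 and to 6.5 to 67.1 TPM elsewhere. Without these 2 libraries edgeR called 1 member, Hspa1b (log2 fold change 0.57, adjusted p of 0.0407), among 1040 genes, which were 7.02% of the 14817 tested there, 4.41% higher with spironolactone. In the same fit Hspb1 was at 0.29, Dnajb1 at 0.23, Hsph1 at -0.35 and Hspa5 at -0.31.

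Markers of several cell types also differed in level between the groups. All 9 tested corneal and limbal epithelial markers had positive log2 fold changes, and their summed level was 14454 to 17140 TPM with spironolactone and 8400 to 11827 TPM with vehicle. Of the conjunctival and goblet cell list the 2 genes tested, the keratin genes Krt13 and Krt4, were both positive. That list summed to 11628 to 16047 TPM with spironolactone and 6569 to 10485 TPM with vehicle. Its gene Tff3 was too scarce to test, at a mean of 0.26 TPM with spironolactone and 0.467 TPM with vehicle. The sum is therefore that of the keratin genes and says nothing of goblet cells. All 7 tested skeletal muscle markers were negative, with 139.7 to 243 TPM with spironolactone and 489 to 1045 TPM with vehicle. Blood endothelial markers summed to 156 to 188 TPM with spironolactone and 213 to 279 TPM with vehicle, and neutrophil markers to 57.8 to 86.1 TPM with spironolactone and 89.0 to 124 TPM with vehicle. Macrophage markers overlapped, at 214 to 250.3 TPM with spironolactone and 238 to 299 TPM with vehicle, as did Schwann cell markers, at 107 to 139.6 TPM with spironolactone and 100.2 to 133 TPM with vehicle. Keratocyte and fibroblast markers, 2 positive and 3 negative of 5 tested, summed to 4266 to 4626 TPM with spironolactone and 4544 to 4923 TPM with vehicle. Mitochondrial transcripts took 4.17% to 4.85% of counts with spironolactone and 5.13% to 5.48% with vehicle. In bulk tissue a change in the number of cells of a type and in RNA per cell cannot be told apart, and the part of these shifts in the chaperone values was not tested. On the corneal and limbal epithelial list, the basal keratin gene Krt5 averaged 6957 TPM with spironolactone and 3936 TPM with vehicle. The differentiated corneal keratin gene Krt12 was low, at 10.2 TPM with spironolactone and 8.63 TPM with vehicle.

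Around the members, further genes of the chaperone network were described by class. The lists held 138 genes with the members, the immediate-early genes and the steroid receptors, all in the files, of which 131 were tested. None passed the adjusted threshold in edgeR (0% of all genes did). The counts below therefore give only the sign of the log2 fold change, beside a median of -0.0073 over all genes. Some genes are on several of the lists, among them Hsp90b1, Trap1 and Hspa9, so the counts of different lists are not independent.

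Of the HSP70 and HSP110 relatives, 6 of 9 tested genes were negative, with a median of -0.17. The lowest p belonged to Hspa12b (-0.36), Hspa13 (-0.20) and Hspa12a (-0.61). The mitochondrial HSP70 gene Hspa9 was at 0.019 (adjusted p of 0.91 in edgeR), near Hspd1 and Hspe1, and Hspa1l, a testis-type relative, was scarce at 0.677 ± 0.197 TPM with spironolactone and 0.603 ± 0.104 TPM with vehicle (SD, n = 3 each).

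J-domain co-chaperones, which deliver clients to HSP70, were negative in 11 of 20, with a median of -0.048. Dnajb5 had 6.44, 7.16 and 5.91 TPM with spironolactone, against 9.54, 10.9 and 9.02 TPM with vehicle. Its groups did not overlap as TPM or as CPM. As CPM, 16.1% of all genes tested lay apart in that direction. The Dnajb5 log2 fold change of -0.54 (SE 0.11, adjusted p of 0.0735 in edgeR, 0.0068 in DESeq2) was opposite in sign to that of its family member Dnajb1. DESeq2 called 3.55% of genes lower. Dnaja4 was at 0.20 and Dnajc10 at -0.12.

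The list of HSP90 and steroid receptor co-chaperones also holds the HSP90 genes of the endoplasmic reticulum and mitochondria, and was positive in 11 of 18 with a median of 0.031. The scaffold gene Stip1 was at -0.0057, the p23 gene Ptges3 at 0.0072, and the immunophilin genes Fkbp4 and Fkbp5 at 0.041 and 0.070, with adjusted p from 0.759 to 0.974 in edgeR. Fkbp5 had 23.6, 12.8 and 20.4 TPM with spironolactone, against 18.8, 18.3 and 19.2 TPM with vehicle, so the vehicle libraries lay inside the spironolactone range. The lowest p belonged to Unc45a (0.18), Hsp90b1 (-0.21) and the mitochondrial HSP90 gene Trap1 (0.16). The receptor genes Nr3c2 and Nr3c1 had log2 fold changes of -0.084 and -0.14 (adjusted p of 0.722 and 0.351 in edgeR).

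Small heat shock proteins other than Hspb1 were negative in all 6 tested genes, with a median of -0.73, opposite in sign to Hspb1. Hspb6, a gene of muscle, had 28.5, 34.0 and 40.5 TPM with spironolactone, against 47.3, 91.7 and 71.2 TPM with vehicle (log2 fold change -0.97, SE 0.26, adjusted p of 0.114 in edgeR and 0.002 in DESeq2). Cryab, of lens and muscle, had 88.5, 91.3 and 90.4 TPM with spironolactone, against 99.9, 125.9 and 209.8 TPM with vehicle (log2 fold change -0.63). Its highest value fell in vehicle replicate 3, the library with the most lens markers, and Cryaa is itself on the lens list. Hspb8 and Hspb2 were at -0.20 and -0.66. Beside them the summed muscle markers were 139.7 to 243 TPM with spironolactone and 489 to 1045 TPM with vehicle, and their part was not tested.

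Endoplasmic reticulum chaperones and genes of the unfolded protein response were negative in 18 of 22, with a median of -0.097, as Hspa5 was. Hsp90b1, the HSP90 of this compartment, had 484, 396 and 452 TPM with spironolactone, against 559, 563 and 482 TPM with vehicle, and the groups overlapped. Its log2 fold change was -0.21 (SE 0.096, adjusted p of 0.253 in edgeR). The stress sensor Atf6 was at -0.20, the transcription factor Xbp1 at -0.24 and the collagen chaperone Serpinh1 at -0.22, with adjusted p of 0.13, 0.153 and 0.164 in edgeR.

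Mitochondrial chaperones and proteases were positive in 10 of 12 with a median of 0.025, and the protease gene Lonp1 was at 0.20, Grpel1 at 0.18 and Htra2 at -0.15. The cytosolic chaperonin and prefoldin genes were positive in 12 of 14 with a median of 0.037, and 0 had an unadjusted p under 0.05. Cct5 was at 0.13, Cct3 at 0.096 and Pfdn2 at -0.095. Among HSF and nucleotide exchange regulators, 7 of 10 were positive with a median of 0.052. Hsf1 was at -0.038 (adjusted p of 0.771 in edgeR) and Hsf2 at -0.20. Bag3, an HSF1 target whose product works with HSP70 and small heat shock proteins, had 51.3, 52.8 and 58.6 TPM with spironolactone, against 46.2, 49.8 and 48.7 TPM with vehicle. The groups did not overlap as TPM or as CPM, as for Hspa1b, Hspb1 and Dnajb1. As CPM, 16% of all genes tested lay apart in that direction. The log2 fold change of Bag3 was 0.23 (SE 0.070, adjusted p of 0.128 in edgeR), while that of the inducible member Hsph1 was -0.23. Bag6 was at 0.13.

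Immediate-early genes, which tissue injury and dissection also induce, were negative in 13 of 14 with a median of -0.25. This sign was opposite to that of the 3 higher inducible chaperones and the same as that of Hsph1 (-0.23). Whether injury or handling bears on the chaperone values was not tested. Atf3 was at -0.66, Egr2 at -0.72 and Fos at -0.84, with adjusted p of 0.0747, 0.0747 and 0.158 in edgeR.

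**Figure D4:**
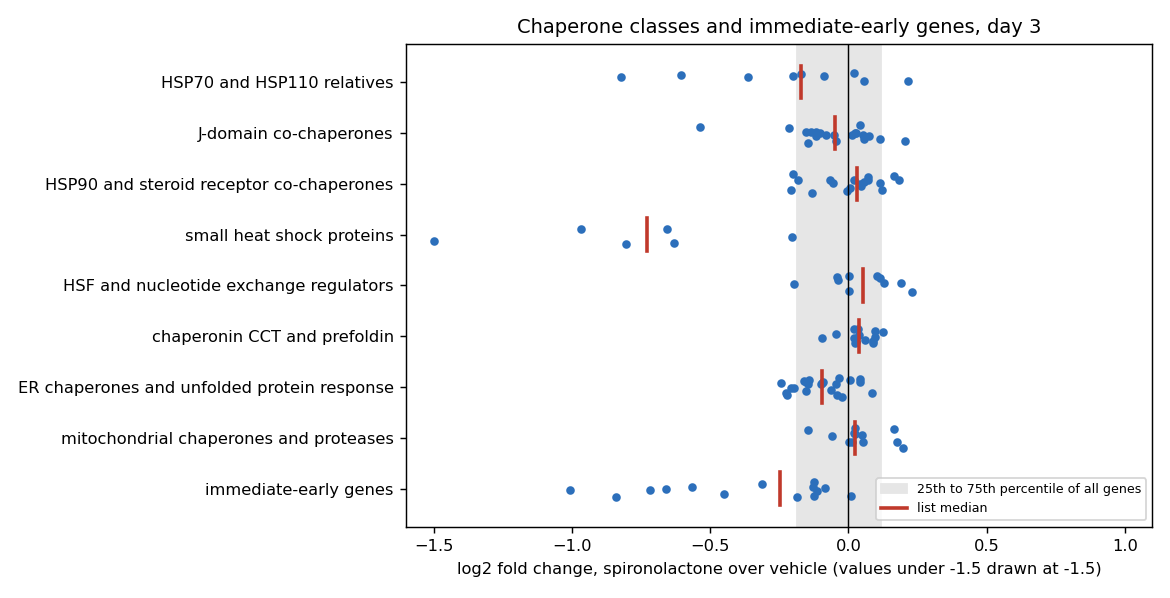
Log2 fold changes of spironolactone over vehicle (horizontal axis) of the genes on each list (rows, 1 point per tested gene, vertical scatter added for legibility), with the list median in red and the 25th to 75th percentile of all genes in grey. The medians of the small heat shock proteins (-0.73) and the immediate-early genes (-0.25) lie left of the grey band, and those of the other 7 lists drawn lie within it. The members themselves are not drawn here.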

How the data were processed

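RNA-seq of 6 day 3 libraries was used, 3 per treatment. The submitters' processing notes name STAR 2.5.3a, RSEM 1.2.28, DESeq2 1.26.0 and edgeR 3.28.0, among others, without the role of each, and for the genome Rnor_6.0, also called rn6. The authors deposited estimated counts per gene, of which 99.2% to 99.3% of the values above 0 were whole, and TPM values, per the file headers. Whether counting used strand, and how reads matching several genes were assigned, are points not given in the sources used here. One row naming no gene held 0.12% to 0.181% of counts and was left out. Totals were 18.1 M to 25.3 M estimated counts. No pair of libraries within a group agreed within sampling noise (mean chi-square per gene 7.91 to 23.7).

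Rounding made whole numbers of the estimated counts as deposited. After edgeR's expression filter (minimum count 10) and TMM scaling, robust quasi-likelihood tests were run on 14762 genes with edgeR 4.0.16 (R 4.3.3), with Benjamini-Hochberg adjustment over these genes. Standard errors are the log2 fold change over the square root of F. CPM values are TMM-scaled, and the deposited TPM values served for levels between genes and for ratios. Alternatives were DESeq2 1.42.0 (no adjusted p for 864 genes), limma 3.58.1 (voom, and log2(TPM + 1) or log2(TPM + 0.1)), RLE scaling, other filters, effective-length offsets, a replicate block and libraries left out.

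The members and lists were chosen with earlier results of these data known. The text names all members, up to 3 genes with the smallest p per list, and 13 fixed genes; Krt5, Krt12 and Hsc70-ps2 were chosen after their values were seen. Promoter windows are from RefSeq (GRCr8), another build than that of the files, and are used for sequence only.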

Additional observations from a re-analysis of the deposited data

How the results depend on the processing

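Over 16 alternatives Hspa1b, Hspb1, Dnajb1 and Hsp90ab1 kept positive and Hsph1 and Hspa5 negative log2 fold changes (Hspa1b 0.35 to 0.57). Without spironolactone replicate 3 Hsp90ab1 was at 0.11, and without spironolactone replicate 2 Hsph1 was at -0.13 and Hspa5 at -0.15. With all 6 libraries 4 of the 9 members did not overlap under each alternative, beside 27% (no filter) to 32.9% (TPM) of all genes tested. They were not always the same 4 members. On TPM, Hsph1, lower with spironolactone, took the place of Hsp90ab1. With fewer libraries 4 to 6 did not, among 37.6% to 48.4% of all genes with 1 library left out and 57% without both replicates 3. DESeq2 called 3 members and 1344 genes; without both replicates 3 the numbers were 1 and 1040. With no filter 148 genes were called, against 0 in edgeR as reported. Leaving out 1 library gave 0 to 781 genes (781 without vehicle replicate 3, 40 without vehicle replicate 1, 2 without spironolactone replicate 3) and 0 members. The cause was not tested.

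The median over inducible members was 0.222 on log2(TPM + 1), 0.223 on log2(TPM + 0.1) and 0.225 to 0.330 when 1 library was left out, the lowest without spironolactone replicate 3. With 1 library left out the constitutive median ran from 0.046 (without spironolactone replicate 3) to 0.14, and the mitochondrial median from -0.069 (without spironolactone replicate 3) to 0.13 (without spironolactone replicate 2), with -0.023 without vehicle replicate 2. Signs of members turned only for genes near 0: on log2(TPM + 0.1) Hspa8, Hspd1 and Hspe1 were at -0.0538, -0.0572 and -0.0338, on log2(TPM + 1) at -0.0537, -0.0570 and -0.0338, and without both replicates 3 Hspa8 and Hspd1 were at -0.0281 and -0.0657. With 1 library left out Hspa8 ran from -0.0228 to 0.0688, Hspd1 from -0.101 to 0.0905, Hspe1 from -0.0382 to 0.173, and the log2 ratio of Hspd1 to Hspe1 from -0.0462 to 0.0082 (-0.0523 without both replicates 3). The median over all genes moved to -0.0599 on log2(TPM + 1).

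With replicate number as a block edgeR called 0 genes, and Hspa1b had an adjusted p of 0.119. Same-numbered libraries correlated at 0.108, -0.0893 and 0.0597 in their deviations from group means. Spironolactone replicates 1 and 3 correlated best with their same-numbered vehicle libraries, and spironolactone replicate 2 with vehicle replicate 3 (0.0504). Correlations this small, around means of 3 libraries, cannot tell whether the numbers pair the libraries. The ratio Hsp90aa1 to Hsp90ab1 was not run. Depth limits what can be said of the scarce Hspa1l.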
